A study of Homo sapiens with 40 samples.

Results

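The paralogs IGF2BP3 and IGF2BP2 were each knocked out in RKO cells under the same induction, and the results here concern the difference between the 2 knockout effects. The difference was computed for each gene as the change from DMSO to doxycycline (Dox) in cells with guides against IGF2BP3, minus the same change in cells with guides against IGF2BP2, on the log2 scale. A positive knockout difference means that the gene ended relatively higher after the IGF2BP3 knockout, and a negative one that it ended relatively higher after the IGF2BP2 knockout. The groups were chosen by their labels: 4 groups of 4 libraries, that is 16 of the 40 libraries of the series. The other 24 libraries are 8 with guides against AAVS1, a non-coding locus that serves as a control for cutting, and 16 treated with small interfering RNA (siRNA).

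RKO is an established human colorectal carcinoma line, here with Cas9 under a doxycycline-inducible promoter and GFP. Every line also expressed a pair of guide RNAs together with a blue fluorescent protein, and positive cells were sorted, so the DMSO controls carry the cassette and the guides too. Whether a line is 1 clone is not given in the sources used here. Induced cells received Dox at 250 ng/mL for 72 hours and uninduced cells received DMSO. The siRNA libraries come from the same 2 lines, each treated at 75 nM for 48 hours with siRNA to its own target gene or with a control siRNA. All 40 libraries come from poly(A) RNA of cells fed the nucleoside s4U at 250 µM for 2 hours, and only the total count per gene was used. The labels describe quadruplicate wells, so p-values measure the spread between these wells, which may be technical.

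IGF2BP2 and IGF2BP3 belong to a family of RNA-binding proteins with RRM and KH domains that bind many mRNAs, including m6A-modified ones, and are known for stabilising them and for steering their translation and location. Cas9 cuts DNA at the site a guide matches, and repair leaves small insertions and deletions that can end the reading frame and lower the mRNA. In cells with working p53, DNA breaks also raise p53 target genes, slow entry into S phase and lower genes that E2F factors drive. Knockouts by cutting can therefore carry a response to the cut beside the loss of the protein, and sgAAVS1 values are given beside many results for that reason.

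The 4 guides are shown because they set where each line was cut. They are written 5′ to 3′ in lower case with the adjacent NGG motif (PAM) that Cas9 needs in capitals, as read from the labels and from the GENCODE release 29 transcripts (GRCh38).
IGF2BP3 guide 1: tggcaccgactgatagagctGGG
IGF2BP3 guide 2: gaagatactttctaggtccgAGG
IGF2BP2 guide 1: atatgtgacgttgacaacggCGG
IGF2BP2 guide 2: gtgcgctgaggttcaaccctGGG
IGF2BP3 guide 1 lies at chr7:23319200-23319219, in coding exon 11 of 15 at codon 414 of 579, and guide 2 lies at chr7:23470045-23470064, in exon 1 at codon 17. IGF2BP2 guide 1 lies at chr3:185692722-185692741, in coding exon 5 of 16 at codon 122 of 599, and guide 2 lies at chr3:185672630-185672649, in exon 10 at codon 365. All 4 match the + strand, opposite to the direction of transcription of both genes. Among annotated transcripts each guide matched its own gene alone without a mismatch. Counting positions from 1 at the guide's 5′ end, IGF2BP2 guide 1 matched 2 processed pseudogenes, AC020629.1 on chromosome 12 and AC244394.1 on chromosome 1, each with the substitution G19A. IGF2BP3 guide 1 matched the processed pseudogene AC092447.1 on chromosome 7 with G3A and T20C, and guide 2 matched it with G20A. Near matches were searched with up to 2 mismatches and only where an NGG motif followed. Within these limits IGF2BP2 guide 2 matched no gene but its own. Sequence outside annotated transcripts was not searched.

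Total counts of the 16 libraries ranged from 10018181 to 24822807 (median about 13622600). Of 16 markers listed for colorectal epithelium and this line, EPCAM, KRT8, KRT18, CDX2 and the mesenchymal VIM were counted in all 16 libraries, while CDH1, KRT19, KRT20, CDX1, VIL1, CDH17, LGR5, ASCL2, GPA33, CEACAM5 and MUC2 had 0 to 3 counts a library, so most defining markers of differentiated colon epithelium were near 0. Summed over the 16 markers the level was 306 to 349 CPM (counts scaled to a common library total), and summed over 20 markers of other cell types it was 2.14 to 4.05 CPM. These sums used the library total alone, while all CPM values below used a TMM-adjusted library total. One library stood apart, the sgIGF2BP2 Dox replicate 2. Mitochondrially encoded mRNAs were 5.86% of its counts against 8.38% to 9.12% in its 3 fellow replicates. It also stood apart over the tested genes. The chi-square per gene between this library and its fellows was 11.8 to 16.6, against 1.5 to 3.7 for all other replicate pairs. Each reported gene named by the rule given below that lost its call without this library is given with its value without it. Called genes outside that rule were not checked singly in this way. Without this library 344 genes were called in the knockout difference, against 333 with it.

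Each targeted mRNA fell in its own line, to 31.2% of the DMSO level for IGF2BP3 and to 39.7% for IGF2BP2. IGF2BP2 stood at 83.8, 84.0, 86.5 and 86.7 CPM with DMSO in the sgIGF2BP2 line and at 34.5, 33.5, 38.02 and 29.5 CPM with Dox. IGF2BP2 stood at 92.6, 98.0, 93.8 and 93.2 CPM with DMSO and at 94.8, 97.3, 93.4 and 104.8 CPM with Dox in the sgIGF2BP3 line. The IGF2BP2 groups thus separated fully in the first line and overlapped in the second, which gave a knockout difference of 1.39 ± 0.067 (SE, n = 4 libraries a group, as for all differences; edgeR quasi-likelihood test with Benjamini-Hochberg adjusted p = 7.93e-27).

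IGF2BP3 stood at 179.6, 180.7, 175.2 and 185.2 CPM with DMSO in the sgIGF2BP3 line and at 56.1, 58.5, 59.1 and 51.1 CPM with Dox. In the sgIGF2BP2 line it stood at 185.0, 165.2, 181.5 and 183.9 CPM with DMSO and at 154.9, 145.1, 151.2 and 153.1 CPM with Dox. IGF2BP3 mRNA therefore fell in both lines without overlap, by 1.68 on the log2 scale after its own guides and by 0.25 after the IGF2BP2 guides (edgeR adjusted p = 2.93e-06), and the difference was -1.44 ± 0.061 (edgeR adjusted p = 6.97e-30). With guides against AAVS1 the IGF2BP3 log2 change on Dox was 0.04. The siRNA pool against IGF2BP2 gave IGF2BP3 a log2 change of -0.04 (edgeR adjusted p = 0.456), so the smaller fall of IGF2BP3 was not seen with the siRNA. The third paralog, IGF2BP1, had at most 1 count in any of the 16 libraries and was not tested.

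Of 11428 genes tested, 333 (2.91%) passed the threshold of edgeR adjusted p under 0.05 in the knockout difference. Higher genes numbered 193 (1.69%) and lower genes 140 (1.23%). The differences were mostly small: the median size over the 333 was 0.27 on the log2 scale, and 8 genes reached a 2-fold difference, 1 higher and 7 lower. When a change of at least 1.2-fold was required of the test, 6 genes passed, among them IGF2BP2, IGF2BP3, ACTA2, HDAC9 and MDM2. The split by direction depended on the scaling: higher genes were 58.0% of the calls in the main fit, 43.4% (144 of 332) with upper quartile factors and 72.3% (482 of 667) with an offset for GC content and length. The 2 lines were close before induction, with 2 genes, MSN and IL13RA2, called between the DMSO groups (0.0175%; 653 at an unadjusted p under 0.05; both were named after their values were seen), while 1215 genes (10.6%) were called between the Dox groups. None of the 333 was called before induction and 321 were called between the Dox groups, which share libraries with the knockout difference. Genes named below for the size of their difference had to have fully separate Dox and DMSO libraries in at least 1 line. For these genes, among them TAGLN, EME1, FAM111B, ACTA2, NT5E, PRDM1 and HDAC9, separation in 1 line was thus a condition of naming and not a further result.

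Most of what separated the lines took place in the sgIGF2BP2 line. Dox changed 2326 genes there (20.4%), of which 1143 rose (10.0%) and 1183 fell (10.4%), and upper quartile factors gave 1362 rises and 938 falls. In the sgIGF2BP3 line Dox changed 302 genes (2.64%), of which 187 rose (1.64%) and 115 fell (1.01%). In sgAAVS1 cells it changed 1820 (15.9%), of which 828 rose (7.25%) and 992 fell (8.68%). The count in the sgIGF2BP3 line rested on single libraries: it was 108 without Dox replicate 4, 172 without Dox replicate 2, 162 without DMSO replicate 3 and 151 without DMSO replicate 4. Over all tested genes the median size of the Dox effect was 0.09 in the sgIGF2BP2 line, 0.07 in the sgIGF2BP3 line and 0.09 in the sgAAVS1 line on the log2 scale.

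Of the 333 genes, 308 were also called in the sgIGF2BP2 line and 41 in the sgIGF2BP3 line, and the change was larger in size in the sgIGF2BP2 line for 305; these comparisons share libraries, so the counts describe how the difference is made up. The most frequent pattern, 175 of the 193 higher genes, was a fall in the sgIGF2BP2 line with no call in the sgIGF2BP3 line; the median changes of these genes were -0.24 in the sgIGF2BP2 line, -0.01 in the sgIGF2BP3 line and -0.13 in sgAAVS1 cells. The next, 105 of the 140 lower genes, was a rise in the sgIGF2BP2 line with no call in the sgIGF2BP3 line, with median changes of 0.37, 0.01 and 0.15 in the same order. A further 18 lower genes rose in both lines and 4 higher genes fell in both (RRM2, ZWINT, RAB3IP and TMPO). Among the 333, only CALD1 and TAGLN rose in both lines and more in the sgIGF2BP3 line. In a principal component analysis of the 16 libraries, the first component (19.8% of the variance) placed the DMSO libraries of both lines between -9.97 and -5.39, the sgIGF2BP3 Dox libraries between -0.23 and 3.72 and the sgIGF2BP2 Dox libraries between 12.5 and 15.6.

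**Figure D1:**
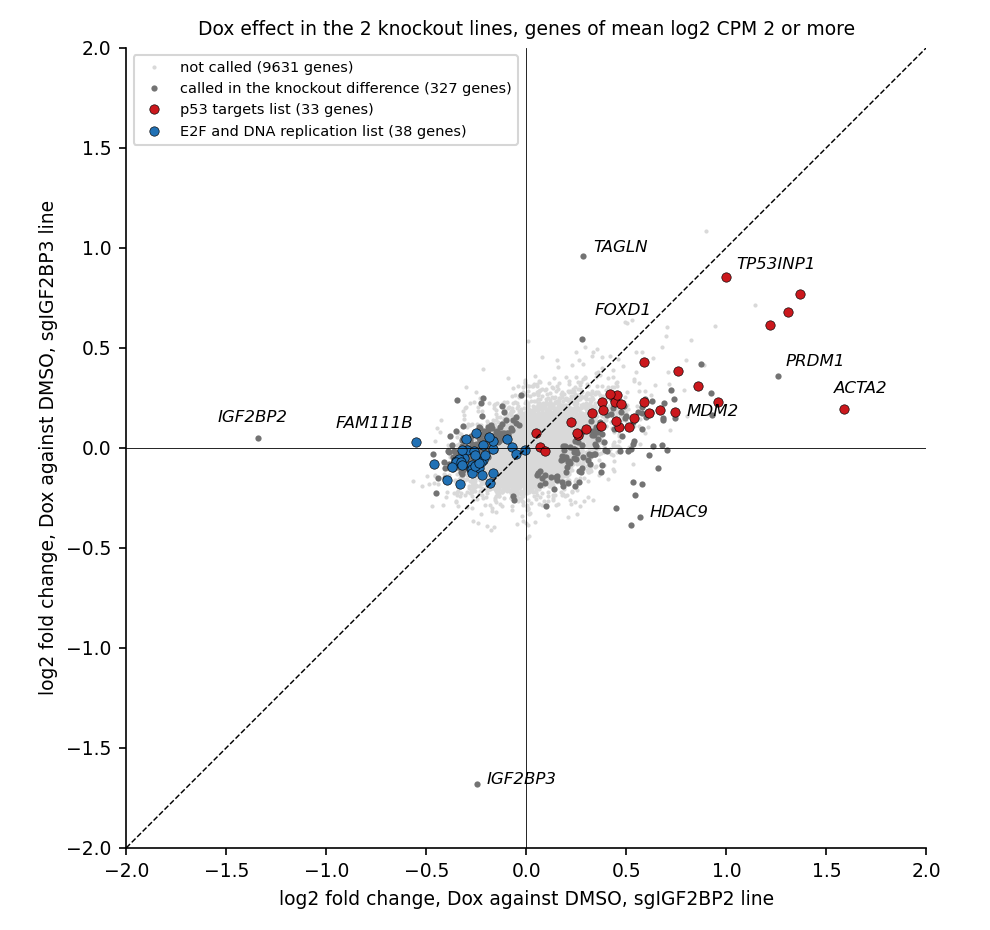
Log2 fold change from DMSO to Dox in the sgIGF2BP2 line (x) and in the sgIGF2BP3 line (y) for 9958 tested genes whose mean log2 CPM was 2 or more; each point is a gene, dark grey points (327 genes) were called in the knockout difference, and the dashed line marks equal change. Red p53 targets lie right of zero and mostly below the line, blue replication genes lie mostly left of zero and above it, and IGF2BP2 and IGF2BP3 lie apart on the left and at the bottom.

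Targets of p53, the transcription factor that answers DNA damage, ended lower in the sgIGF2BP3 line relative to the sgIGF2BP2 line. Of 33 tested members of a list of 36, 13 were called lower and 0 higher in the knockout difference, against 1.23% called lower over all tested genes; 31 of 33 had a negative value and the median was -0.26, against -0.003 over all genes. Dox raised 29 of the 33 in the sgIGF2BP2 line (median 0.46), 12 in the sgIGF2BP3 line (median 0.19) and 17 in sgAAVS1 cells (median 0.18), and lowered none of them in any of the 3. The level of the list, the mean log2(CPM + 1) over its 33 genes, was 4.95 to 5.00 in the sgIGF2BP2 DMSO libraries and 5.46 to 5.52 with Dox. In the sgIGF2BP3 line it was 4.96 to 5.00 with DMSO and 5.17 to 5.23 with Dox. The 2 Dox groups did not overlap, and the sgIGF2BP3 Dox range lay over that of sgAAVS1 Dox, 5.20 to 5.23.

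CDKN1A, which encodes the cyclin-dependent kinase inhibitor p21, stood at 242.2, 241.2, 228.6 and 245.4 CPM with DMSO and 327.8, 340.1, 344.3 and 352.7 CPM with Dox in the sgIGF2BP2 line. It stood at 243.0, 234.8, 247.2 and 235.6 CPM with DMSO and 256.4, 261.0, 256.4 and 256.7 CPM with Dox in the sgIGF2BP3 line. Both lines separated without overlap, but the step was far smaller in the second, with a knockout difference of -0.41 ± 0.046 (edgeR adjusted p = 2.61e-09). The rise in the sgIGF2BP3 line, 0.10, did not pass the test (edgeR adjusted p = 0.0793). CDKN1A rose in sgAAVS1 cells by 0.18 (edgeR adjusted p = 4.45e-05).

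MDM2, the ubiquitin ligase that degrades p53 and is itself a p53 target, went from 123.3, 106.5, 115.1 and 111.1 CPM to 186.7, 189.4, 179.1 and 207.3 CPM in the sgIGF2BP2 line. It went from 126.1, 120.6, 124.0 and 118.3 CPM to 144.7, 146.7, 139.8 and 123.3 CPM in the sgIGF2BP3 line. The Dox libraries of the second line overlapped their DMSO libraries in 1 of 4, and the MDM2 difference was -0.56 ± 0.065 (edgeR adjusted p = 5.83e-09). MDM2 rose by 0.74 in the sgIGF2BP2 line, 0.18 in the sgIGF2BP3 line and 0.36 in sgAAVS1 cells. AEN, a p53-induced exonuclease, rose by 0.46 in the sgIGF2BP2 line, changed by 0.11 in the sgIGF2BP3 line (edgeR adjusted p = 0.134) and had a difference of -0.36 ± 0.055 (edgeR adjusted p = 1.54e-05).

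ACTA2, smooth muscle actin and a p53 target on this list, had the largest negative difference after IGF2BP3 itself among the genes named here. It stood at 2.40, 2.83, 3.02 and 4.01 CPM with DMSO and at 9.80, 10.8, 7.72 and 8.24 CPM with Dox in the sgIGF2BP2 line, but at 3.70, 2.77, 2.54 and 3.93 CPM with DMSO and 2.99, 3.70, 4.43 and 3.65 CPM with Dox in the sgIGF2BP3 line. The groups separated in the sgIGF2BP2 line alone, and the difference was -1.39 ± 0.242 (edgeR adjusted p = 0.000107). The ACTA2 change in sgAAVS1 cells was 0.40 (edgeR adjusted p = 0.0948). ACTA2 shares exon bases with FAS on the opposite strand, and whether the counting used strand is not given in the sources used here. FAS, a death receptor, had a difference of -0.55, BTG2, an antiproliferative factor, one of -0.60, BBC3, the BH3-only protein PUMA, one of -0.60, and SESN1, a sestrin that restrains mTORC1, one of -0.73.

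The remaining called p53 targets were RRM2B, ZMAT3, GADD45A, FDXR and TNFRSF10B, with differences from -0.48 to -0.19. TP53INP1, a p53 target that promotes cell death and autophagy, is the counterexample: it rose by 1.00 in the sgIGF2BP2 line, by 0.85 in the sgIGF2BP3 line and by 0.95 in sgAAVS1 cells, with a difference of -0.14 (95% interval -0.47 to 0.18). The positive members of the list were KITLG (0.27) and TRIAP1 (0.02), neither called. Of the 33 targets, 23 had an unadjusted p under 0.05 in the difference, against 1708 of 11428 over all tested genes.

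Genes of DNA replication ended higher in the sgIGF2BP3 line relative to the sgIGF2BP2 line. Of 39 tested genes that E2F factors drive or that replicate DNA, 17 were called higher and 0 lower, against 1.69% called higher over all tested genes; 38 of 39 had a positive value, with a median of 0.20. Dox lowered 33 of them in the sgIGF2BP2 line (median -0.26), 3 in the sgIGF2BP3 line (median -0.06) and 14 in sgAAVS1 cells (median -0.12). The list level was 6.22 to 6.26 mean log2(CPM + 1) in the sgIGF2BP2 DMSO libraries and 5.97 to 6.002 with Dox, and 6.23 to 6.26 with DMSO and 6.18 to 6.22 with Dox in the sgIGF2BP3 line. The fall was without overlap in both lines, and the lowest sgIGF2BP3 Dox library lay above the highest sgIGF2BP2 Dox library. With an offset for GC content and length, 24 of the 39 were called higher.

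MCM4, a subunit of the MCM helicase that opens replication origins, was among the tightest values: 439.2, 441.1, 443.8 and 431.7 CPM with DMSO against 348.9, 347.8, 348.5 and 347.3 CPM with Dox in the sgIGF2BP2 line. MCM4 stood at 462.1, 437.2, 441.5 and 442.7 CPM with DMSO and 425.7, 421.2, 438.7 and 429.5 CPM with Dox in the sgIGF2BP3 line. The second pair of groups overlapped and the first did not, and the MCM4 difference was 0.28 ± 0.041 (edgeR adjusted p = 4.96e-06). MCM4 fell by 0.19 on the log2 scale in sgAAVS1 cells. The helicase subunits MCM7, MCM2 and MCM5, with MCM10, an initiation factor, had differences of 0.25 to 0.28.

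FAM111B, a protease linked to replication, had the largest positive difference of the list. It went from 37.9, 36.2, 41.4 and 32.8 CPM to 27.7, 23.05, 26.4 and 25.4 CPM in the sgIGF2BP2 line. FAM111B stood at 29.6, 30.5, 36.3 and 37.0 CPM with DMSO and 35.9, 34.0, 34.2 and 31.8 CPM with Dox in the sgIGF2BP3 line. Only the first line separated, and the difference was 0.58 ± 0.098 (edgeR adjusted p = 6.16e-05). The other called members were GINS4 (0.35) and CDC45 (0.29) of the replicative helicase, the loading factors CDT1 (0.28) and CDC6 (0.23), the chromatin assembly subunit CHAF1B (0.33), the checkpoint mediator CLSPN (0.23), the clamp loader subunit RFC4 (0.28), the polymerase subunit POLA1 (0.31), both ribonucleotide reductase subunits RRM1 (0.17) and RRM2 (0.15), and thymidine kinase TK1 (0.20). TK1 lost its call in 20 of 28 alternative fits that did not require a 1.2-fold change.

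Of 35 tested mitosis genes, 3 were called higher, against 1.69% over all tested genes, and 0 lower. Of the 35, 32 had a positive value and the median was 0.11; Dox lowered 27 in the sgIGF2BP2 line, 3 in the sgIGF2BP3 line and 7 in sgAAVS1 cells. FOXM1, the transcription factor that drives G2 and M phase genes, stood at 239.7, 261.4, 261.9 and 265.7 CPM with DMSO and 205.5, 197.5, 210.7 and 189.7 CPM with Dox in the sgIGF2BP2 line. FOXM1 stood at 252.7, 251.6, 249.4 and 248.3 CPM with DMSO and 232.1, 237.8, 242.2 and 250.5 CPM with Dox in the sgIGF2BP3 line. The sgIGF2BP3 groups overlapped through 1 Dox library, and the difference was 0.30 ± 0.047 (edgeR adjusted p = 1.88e-05). FOXM1 fell by 0.17 on the log2 scale in sgAAVS1 cells.

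MKI67, the proliferation marker Ki-67, had a difference of 0.26 (edgeR adjusted p = 0.0176) that rested on the sgIGF2BP2 Dox replicate 2: that library held 347.3 CPM against 446.1 to 449.7 CPM in its fellows, and without it the difference was 0.18 and lost its call (edgeR adjusted p = 0.0821). TOP2A, topoisomerase II alpha, had one of 0.18 (edgeR adjusted p = 0.0466) and lost its call in 15 of 28 alternative fits.

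Of 37 tested genes of double-strand break repair, 7 were called higher, against 1.69% over all tested genes, and 0 lower. Of the 37, 30 had a positive value and the median was 0.13; Dox lowered 20 in the sgIGF2BP2 line, 1 in the sgIGF2BP3 line and 8 in sgAAVS1 cells. The called genes include the Fanconi anaemia genes FANCA (0.30), FANCD2 (0.34) and FANCI (0.21), the homologous recombination genes XRCC2 (0.31) and XRCC3 (0.27), and the nuclease subunits EME1 and MUS81 (0.24). EME1 stood at 12.5, 10.1, 10.3 and 10.7 CPM with DMSO and 8.66, 8.95, 8.13 and 8.24 CPM with Dox in the sgIGF2BP2 line. EME1 stood at 10.3, 9.19, 9.40 and 8.13 CPM with DMSO and 11.4, 10.6, 10.7 and 11.1 CPM with Dox in the sgIGF2BP3 line. The groups did not overlap in either line and moved in opposite directions, though the rise in the sgIGF2BP3 line did not pass the test (0.24, edgeR adjusted p = 0.163), and the difference was 0.58 ± 0.136 (edgeR adjusted p = 0.0064). In sgAAVS1 cells EME1 fell by 0.41 on the log2 scale, against 0.34 in the sgIGF2BP2 line. DCLRE1B, the nuclease Apollo, which protects telomere ends, also had a positive difference (0.43), with changes of -0.32 in the sgIGF2BP2 line and -0.29 in sgAAVS1 cells.

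The promoters of 4 genes from these lists are shown as examples with a match to a motif of the cell cycle or of serum response factor. They are the 250 bases before the RefSeq gene start (GRCh38.p14), 5′ to 3′ along the gene, with matches to the searched motif in capitals. The E2F motif was searched as TTTCCCGC, TTTGGCGC, TTTCGCGC and TTTGCCGC (MCM7 and FANCA), the cell cycle homology region (CHR) as TTTGAA and TTCGAA (MKI67), and the CArG box of serum response factor by its usual consensus (ACTG1); each was searched on both strands, and no E2F form contains a CHR form.
MCM7 (chr7:100101398-100101647, - strand): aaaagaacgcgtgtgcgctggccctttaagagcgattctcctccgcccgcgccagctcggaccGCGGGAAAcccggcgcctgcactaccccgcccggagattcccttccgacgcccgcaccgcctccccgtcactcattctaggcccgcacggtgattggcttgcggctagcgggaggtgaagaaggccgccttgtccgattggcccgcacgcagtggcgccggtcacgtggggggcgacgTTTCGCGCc
FANCA (chr16:89816648-89816897, - strand): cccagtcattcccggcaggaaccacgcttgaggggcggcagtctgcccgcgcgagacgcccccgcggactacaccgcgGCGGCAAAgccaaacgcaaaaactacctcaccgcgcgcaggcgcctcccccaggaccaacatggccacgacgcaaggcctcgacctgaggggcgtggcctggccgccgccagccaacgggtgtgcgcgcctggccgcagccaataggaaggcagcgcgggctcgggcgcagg
MKI67 (chr10:128126424-128126673, - strand): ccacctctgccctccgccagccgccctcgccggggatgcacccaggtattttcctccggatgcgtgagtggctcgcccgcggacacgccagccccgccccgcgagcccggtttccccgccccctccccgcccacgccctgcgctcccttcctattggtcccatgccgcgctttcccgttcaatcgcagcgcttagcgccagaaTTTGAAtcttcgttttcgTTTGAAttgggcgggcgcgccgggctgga
ACTG1 (chr17:81512800-81513049, - strand): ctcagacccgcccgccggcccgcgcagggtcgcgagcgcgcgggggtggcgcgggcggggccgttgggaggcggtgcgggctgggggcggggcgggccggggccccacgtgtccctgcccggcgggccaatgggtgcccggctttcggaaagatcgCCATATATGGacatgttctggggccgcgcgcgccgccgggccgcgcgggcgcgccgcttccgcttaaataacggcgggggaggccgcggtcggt
In windows of 300 bases (250 before to 50 after the start), an E2F form was found for 18 of 31 replication genes with a promoter in the table (58.1%), for 6 of the 13 called ones among them (46.2%), for 6 of 31 repair genes (19.4%), for 29 of 161 genes called higher (18.0%), for 7 of 116 called lower (6.03%) and for 5.64% of all tested genes. A CHR form was found for 22 of 29 mitosis genes (75.9%) and for 10.9% of tested genes, and a CArG box for 7 of 21 contractile genes (33.3%) and 1.01% of tested genes. These are letter matches only, with no measure of binding.

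Actin and contractile genes driven by serum response factor and its MRTF cofactors tended the other way from p53 targets. Of 24 tested, 5 were called higher, against 1.69% over all tested genes, and 0 lower, and 19 had a positive value with a median of 0.12. ACTA2, a contractile gene called lower, was listed with the p53 targets and is not among these 24. TAGLN, the actin-binding protein transgelin, stood at 13.4, 15.1, 13.6 and 12.5 CPM with DMSO and 15.3, 18.2, 16.7 and 15.9 CPM with Dox in the sgIGF2BP2 line, and at 15.4, 15.3, 13.4 and 14.3 CPM with DMSO and 28.4, 27.5, 30.25 and 27.8 CPM with Dox in the sgIGF2BP3 line. TAGLN rose without overlap in both lines, by 0.28 and by 0.96, and the difference was 0.68 ± 0.112 (edgeR adjusted p = 4.9e-05). In sgAAVS1 cells it rose by 0.99, close to the value in the sgIGF2BP3 line. CALD1, the actin-binding protein caldesmon, rose by 0.28 in the sgIGF2BP2 line, by 0.54 in the sgIGF2BP3 line and by 0.79 in sgAAVS1 cells, with a difference of 0.27.

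ACTG1, cytoplasmic gamma-actin, was called in both lines in opposite directions. It went from 4513, 4663, 4578 and 4655 CPM to 4249, 4275, 4185 and 4072 CPM in the sgIGF2BP2 line. ACTG1 went from 4719, 4563, 4611 and 4591 CPM to 4891, 4940, 4888 and 5136 CPM in the sgIGF2BP3 line. In sgAAVS1 cells ACTG1 went from 4719, 4861, 4659 and 4549 CPM to 4031, 4002, 4036 and 4012 CPM, a change of -0.22 against -0.13 in the sgIGF2BP2 line. No pair overlapped, and the knockout difference was 0.24 ± 0.042 (edgeR adjusted p = 0.000167). The paralog ACTB, beta-actin, changed by -0.14 in the sgIGF2BP2 line and -0.17 in the sgIGF2BP3 line, a difference of -0.03. ACTB lies on 7p between the chromosome end and IGF2BP3, a stretch described below whose median Dox effect in the sgIGF2BP3 line was -0.15. The tropomyosin TPM4 (0.26) and the myosin light chain MYL6 (0.20) completed the called members.

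Targets of the co-activator YAP were mixed, with 2 of 15 called lower and 1 higher, against 1.23% and 1.69% over all tested genes (median -0.13). CCN1, a matricellular protein, went from 107.1, 113.9, 118.2 and 117.0 CPM to 167.4, 165.1, 180.3 and 171.9 CPM in the sgIGF2BP2 line. CCN1 went from 110.5, 108.4, 107.4 and 107.5 CPM to 123.7, 126.1, 129.2 and 120.4 CPM in the sgIGF2BP3 line. It rose without overlap in both, by 0.58 and 0.20, and the difference was -0.38 ± 0.055 (edgeR adjusted p = 3.5e-06). AXL, a receptor tyrosine kinase, had a difference of 0.14 that lost its call in 18 of 28 alternative fits, among them the one without the sgIGF2BP2 Dox replicate 2 (0.14, edgeR adjusted p = 0.0702).

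NT5E, the ecto-nucleotidase CD73 and the other called YAP target, stood at 6.79, 6.09, 5.83 and 6.80 CPM with DMSO and 9.58, 10.3, 9.03 and 12.05 CPM with Dox in the sgIGF2BP2 line, and at 6.95, 6.598, 7.42 and 7.715 CPM with DMSO and 5.98, 6.69, 8.01 and 7.66 CPM with Dox in the sgIGF2BP3 line. The groups separated in the sgIGF2BP2 line and overlapped in the sgIGF2BP3 line, and the NT5E difference was -0.71 ± 0.168 (edgeR adjusted p = 0.00728). The difference between the 2 siRNA effects had the opposite sign for NT5E, 1.11 (edgeR adjusted p = 1.69e-06).

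Of 37 immediate early and MAPK feedback genes, 4 were called lower and 1 higher, against 1.23% and 1.69% over all tested genes (median 0.01). The lower ones were the MAPK phosphatases DUSP5 (-0.44) and DUSP6 (-0.24), the receptor signalling inhibitor SPRY2 (-0.48) and the AP-1 subunit FOSB (-0.35), and the higher one was PHLDA1 (0.19). DUSP5 went from 54.6, 53.9, 52.0 and 59.5 CPM to 87.8, 72.1, 82.7 and 90.9 CPM in the sgIGF2BP2 line, without overlap, and from 58.6, 53.9, 50.0 and 59.4 CPM to 64.6, 60.95, 60.2 and 61.6 CPM in the sgIGF2BP3 line, where the step did not pass the test (0.15, edgeR adjusted p = 0.135). In sgAAVS1 cells the Dox changes were -0.20 for DUSP5, -0.34 for DUSP6 and 0.00092 for SPRY2.

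Of 21 NF-kB targets, 3 were called lower, against 1.23% over all tested genes, and 0 higher: BIRC2 (-0.32), an inhibitor of apoptosis, NFKBIE (-0.35), an inhibitor of NF-kB, and IL11 (-0.43), a cytokine. NFKBIE and IL11 each lost their call in 5 of 28 alternative fits; without the sgIGF2BP2 Dox replicate 2 the differences were -0.31 for NFKBIE (edgeR adjusted p = 0.0581) and -0.39 for IL11 (edgeR adjusted p = 0.064). IL11 rose by 0.72 in the sgIGF2BP2 line and by 0.77 in sgAAVS1 cells.

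Of 24 tested mRNAs reported as IGF2BP targets, 3 were called higher and 0 lower, against 1.69% called higher over all tested genes, and the median difference was 0.002. Dox lowered 9 of the 24 in the sgIGF2BP2 line, 2 in the sgIGF2BP3 line and 10 in sgAAVS1 cells. The shares lowered over all tested genes were 10.4%, 1.01% and 8.68% in the same order. Dox raised 4, 0 and 2 of the 24. HMGA1, a chromatin architectural protein, went from 3925, 4292, 4169 and 4246 CPM to 3484, 3085, 3563 and 3400 CPM in the sgIGF2BP2 line. HMGA1 went from 4054, 4086, 4067 and 4128 CPM to 3887, 4061, 4069 and 4186 CPM in the sgIGF2BP3 line. Only the first pair separated, and the difference was 0.29 ± 0.050 (edgeR adjusted p = 0.000124). HMGA1 has processed copies in the genome, which makes its counts uncertain. It also fell on Dox in sgAAVS1 cells, by 0.36 on the log2 scale, and its siRNA difference had the same sign and was larger (0.94, edgeR adjusted p = 6.53e-25). The other called members of that list were lactate dehydrogenase LDHA (0.20) and TK1. With Dox, LDHA stood at 87.1% of its DMSO mean in sgAAVS1 cells and 81.6% in the sgIGF2BP2 line. TK1 stood at 81.7% in sgAAVS1 cells and 88.5% in the sgIGF2BP2 line.

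Of 25 IGF2BP partners and stress granule proteins, 3 were called higher, against 1.69% over all tested genes, and 0 lower. Among them, the RNA-binding proteins HNRNPU (0.20) and KHSRP (0.18) fell in the sgIGF2BP2 line, by 0.25 and 0.20 on the log2 scale. KHSRP lost its call in 4 of 28 alternative fits, among them the one without the sgIGF2BP2 Dox replicate 2, where KHSRP stood at 542 CPM against 603 to 628 CPM in its fellows. Without that library the KHSRP difference was 0.14 (edgeR adjusted p = 0.0788). Of 23 m6A writers, erasers and readers, 0 were called by edgeR and 2 had an unadjusted p under 0.05. Of 34 genes of the unfolded protein response, 0 were called by edgeR and 5 had an unadjusted p under 0.05, with values from -0.27 to 0.15 and a median of 0.03. Both lists had values in both directions. Over all 11428 tested genes, 2.91% were called in the knockout difference and 1708 had an unadjusted p under 0.05.

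Integrated stress response genes were mixed, with 3 of 27 called higher and 2 lower, against 1.69% and 1.23% over all tested genes (median -0.03). SHMT2 (0.27) and PHGDH (0.28), enzymes of serine and one-carbon metabolism, and the arginine transporter SLC7A1 (0.18) were higher, while PPP1R15A (-0.21), the phosphatase subunit GADD34, and DDIT4 (-0.77), an mTORC1 inhibitor, were lower. DDIT4 stood at 4.14, 4.12, 3.83 and 4.01 CPM with DMSO and 7.83, 8.90, 7.12 and 6.25 CPM with Dox in the sgIGF2BP2 line and at 3.96 to 5.63 CPM in all 8 libraries of the sgIGF2BP3 line. DDIT4 lost its call in 5 of 27 alternative fits; without the sgIGF2BP2 Dox replicate 2 its difference was -0.66 (edgeR adjusted p = 0.0771). DDIT4 also rose in sgAAVS1 cells, by 0.60. Among 29 genes of cholesterol and fatty acid synthesis 1 was called higher and 1 lower, against 1.69% and 1.23% over all tested genes. The lower one was the sterol oxidase MSMO1 (-0.38). Of 37 interferon response and MHC class I genes, BTN3A3 alone was called (-0.75), and of 15 TGF-beta and BMP feedback genes, the ubiquitin ligase SMURF1 alone (-0.29). The share called in either direction over all tested genes was 2.91%.

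Outside the lists, a further set of genes was named for the size of the difference. They were taken among called genes with mean log2 CPM of 2 or more and fully separate Dox and DMSO libraries in at least 1 line. Higher were PPCDC (0.46), an enzyme of coenzyme A synthesis, BDH1 (0.45), which makes ketone bodies, the sialyltransferase ST6GALNAC6 (0.44), the receptor IL17RB (0.44), TMEM223 (0.43), the hormone AMH (0.39) and the p53 paralog TP73 (0.38). TP73 went from 38.8, 43.8, 40.3 and 43.2 CPM to 35.3, 30.3, 31.7 and 28.98 CPM in the sgIGF2BP2 line and stayed between 37.99 and 41.06 CPM in the 8 libraries of the sgIGF2BP3 line. Lower were the transcriptional repressor PRDM1 (-0.90), PDGFRL (-0.76), the histone gene H3C10 (-0.76), CFAP69 (-0.71) and DACT3 (-0.66). PRDM1, also known as BLIMP1, went from 2.48, 2.83, 2.85 and 3.15 CPM to 7.68, 6.14, 6.82 and 6.71 CPM in the sgIGF2BP2 line. It went from 2.76, 3.53, 3.11 and 3.58 CPM to 4.13, 3.70, 4.52 and 4.30 CPM in the sgIGF2BP3 line, again without overlap but with a step that did not pass the test (0.36, edgeR adjusted p = 0.223). Calls were lost in 18 of 28 alternative fits for TMEM223, 14 for IL17RB, 11 for AMH and 5 for PPCDC, and in 13 of 27 for DACT3 and 11 of 27 for PDGFRL. Without the sgIGF2BP2 Dox replicate 2 the calls were lost for PPCDC (0.43, edgeR adjusted p = 0.055), TMEM223 (0.38, edgeR adjusted p = 0.119) and PDGFRL (-0.72, edgeR adjusted p = 0.0683). In sgAAVS1 cells PRDM1 changed by 0.16 (edgeR adjusted p = 0.554), while TP73 fell by 0.20 on the log2 scale. The mean Dox level as a percentage of DMSO is given next, in sgAAVS1 cells and then in the sgIGF2BP2 line. It was 73.7% and 76.4% for ST6GALNAC6, 79.6% and 77.0% for AMH, and 82.4% and 78.9% for TMEM223. It was 88.0% and 71.3% for IL17RB, 95.6% and 86.9% for PPCDC, and 95.1% and 85.5% for BDH1. Among lower genes it was 137% and 149% for PDGFRL and 140% and 163% for DACT3. It was 119% and 153% for H3C10 and 120% and 151% for CFAP69.

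HDAC9, a class IIa histone deacetylase, was the largest of the 3 genes called in opposite directions. It stood at 13.3, 13.1, 13.6 and 14.1 CPM with DMSO and at 20.2, 20.9, 19.3 and 19.7 CPM with Dox in the sgIGF2BP2 line. HDAC9 stood at 16.5, 14.7, 14.8 and 14.9 CPM with DMSO and at 11.96, 12.1, 11.3 and 12.4 CPM with Dox in the sgIGF2BP3 line. No groups overlapped, though separation in 1 line was a condition of naming. HDAC9 rose by 0.57 in the sgIGF2BP2 line, fell by 0.35 on the log2 scale in the sgIGF2BP3 line and had a difference of -0.92 ± 0.115 (edgeR adjusted p = 6.13e-08). In sgAAVS1 cells HDAC9 rose by 0.49, in the direction of the sgIGF2BP2 line. HDAC9 lies at chr7:18086949-19002416, on the same arm as IGF2BP3 and nearer to the chromosome end, and WIPI2 (chr7:5190188-5233826), an autophagy protein and the second such gene on that stretch, had changes of 0.10 and -0.14 and a difference of -0.23 ± 0.049 (edgeR adjusted p = 0.00194).

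Genes between the end of 7p and IGF2BP3 as a whole had lower values in the knockout difference. Of 79 tested genes there, 73 had a negative value (92.4%, against 51.0% over all tested genes), 8 were called lower (10.1%, against 1.23%) and 0 higher, and the median was -0.15. Their median Dox effect was -0.15 in the sgIGF2BP3 line, where 20 fell and 0 rose, against 0.03 in the sgIGF2BP2 line, 0.002 in sgAAVS1 cells and 0.02 in the siRNA difference. The called genes were HDAC9 and WIPI2 with SNX13 (-0.39), C1GALT1 (-0.43), INTS15 (-0.31), POLR1F (-0.27), TTYH3 (-0.19) and BZW2 (-0.17). On the centromere side of IGF2BP3 the median over 100 genes was -0.05 with 1 called lower (STK17A), and on 7q over 362 genes it was -0.04. The count of 8 depended on single libraries and on depth: it was 3 without sgIGF2BP2 DMSO replicate 3, 5 without sgIGF2BP2 DMSO replicate 4, 5 without sgIGF2BP2 Dox replicate 2, 5 without sgIGF2BP3 DMSO replicate 3, 3 with all libraries thinned to the smallest total and 15 with an offset for GC content and length.

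On chromosome 3 the mirror image was smaller. Of 48 tested genes between IGF2BP2 and the 3q end, 33 had a positive difference, against 5596 of 11428 over all tested genes. Of the 48, 3 were called higher (TRA2B, RFC4 and BDH1), against 1.69% over all tested genes, and the median was 0.07. The median Dox effect of the 48 was -0.08 in the sgIGF2BP2 line and 0.01 in the sgIGF2BP3 line. In the sgIGF2BP2 line 10 of them fell and 3 rose, against 10.4% and 10.0% over all tested genes. Between the centromere and IGF2BP2 the median over 272 genes was -0.02. Over 10244 genes on all other chromosomes it was -0.0003. Fewer copies of a chromosome end and less RNA per copy cannot be told apart in these bulk counts, and no DNA was measured. Without all genes of 7p and 3q, 300 genes were called in the knockout difference.

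Both lines also shared changes on Dox. In all, 195 genes were called in both lines, of 2326 (20.4% of tested genes) in the sgIGF2BP2 line and 302 (2.64%) in the sgIGF2BP3 line. Of the 195, 192 went in the same direction (139 rose and 53 fell), and 25 of the 192 also passed the test of the difference. Dox also changed 1820 genes (15.9%) in sgAAVS1 cells, and how many of the 192 are among them was not counted. Over the 192 the median size was 0.28 in the sgIGF2BP2 line and 0.22 in the sgIGF2BP3 line. FOXD1, a forkhead transcription factor, stood at 134.8, 132.7, 143.3 and 168.2 CPM with DMSO and 244.2, 227.2, 214.3 and 256.5 CPM with Dox in the sgIGF2BP2 line. FOXD1 stood at 133.0, 132.1, 119.0 and 151.4 CPM with DMSO and 206.1, 195.2, 198.5 and 215.0 CPM with Dox in the sgIGF2BP3 line. It rose without overlap in both, by 0.70 and 0.61, with a difference of -0.10 (95% interval -0.29 to 0.10), while in sgAAVS1 cells its change was -0.14.

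TMSB4X, the actin-sequestering thymosin beta 4, rose by 0.94 and 0.61 with a change of 0.03 in sgAAVS1 cells; its level of 2.57 to 6.91 CPM and its many processed copies in the genome make it uncertain. The interval of the TMSB4X difference was wide, from -0.81 to 0.14. IDUA, a lysosomal iduronidase (0.83 and 0.54), the endocytic receptor CUBN (0.70 and 0.56) and CELSR3, an adhesion receptor of the cadherin family (0.53 and 0.64), completed the set of shared genes named by rule, and none of their differences passed the test. In sgAAVS1 cells CUBN rose by 0.78, more than in either line, while the changes of IDUA (0.29) and CELSR3 (0.10) did not pass the test there.

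When the same 2 genes were lowered by siRNA in the same lines without Dox, the difference between the 2 siRNA effects called 2137 genes (18.7%), in libraries that the knockout difference does not use. Of the 333 genes of the knockout difference, 112 were called there: 45 in the same direction and 67 in the opposite one, and 152 of 333 had the same sign. The targets themselves were large and of the same sign (1.84 for IGF2BP2 and -2.74 for IGF2BP3). CDKN1A, by contrast, had a siRNA difference of 0.38 (edgeR adjusted p = 1.37e-09) against a knockout difference of -0.41: it fell by 0.38 on the log2 scale with the IGF2BP2 siRNA and changed by 0.002 with the IGF2BP3 siRNA. MDM2 had 0.16 (edgeR adjusted p = 0.0927) and MCM4 0.01 in the siRNA difference. TPM4 (0.30) and ACTG1 (0.12) had called siRNA differences of the same sign as in the knockouts, while CALD1 (-0.38), DUSP5 (0.50) and MSMO1 (0.36) had called ones of the opposite sign.

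Several genes named here share exon bases with a gene on the opposite strand, among them TAGLN with PCSK7, EME1 with LRRC59, IGF2BP3 with MALSU1, MCM7 with AP4M1, FOXM1 with ITFG2, FANCA with ZNF276 and HNRNPU with COX20, whose own difference was 0.33. The libraries were directional, but the strand setting of the counting is not given in the sources used here, so reads of such pairs may not be told apart. The response to cutting and the loss of each protein cannot be told apart within this difference, because the lines differ in guide sites and in target at once.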

How the data were processed

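Poly(A) RNA of 40 RKO libraries was sequenced, and the whole-number read counts per gene used here were deposited by the authors as 1 table. Per the submitters' processing notes, bcl2fastq 2.20.0.422 and STAR 2.7.5c were used with the hg38 build; the counting tool, its strand setting and its annotation are not given in the sources used here. The labels describe directional libraries. Groups were taken from the labels, and 0 columns belonged to another series.

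Of 19962 genes in the table, 4125 had no count in any library. After the edgeR filter on low counts by group, 11428 genes were tested, holding 99.98% of counts. edgeR 4.0.16 (R 4.3.3) fitted a quasi-likelihood model with trimmed-mean (TMM) factors and 1 coefficient per group to all 40 libraries, which share 1 estimate of the spread. The knockout difference is a contrast of 4 coefficients, its SE is the size of the log2 value over the square root of F, and p-values were adjusted by Benjamini-Hochberg over all tested genes, with a gene called below 0.05. CPM values are counts scaled by library size and TMM factor, except the marker sums, which used the library total alone. Positions came from GENCODE release 29 and promoters from RefSeq (GRCh38.p14). The procedure was tested on simulated counts. These had no change in any group but sgIGF2BP3 Dox and 1 common spread for all genes, so they were simpler than the real counts.

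Genes were named by a rule. It took both targets and IGF2BP1, and the 12 higher and 12 lower called genes with the largest difference, provided that mean log2 CPM was 2 or more and that Dox and DMSO libraries of 1 line were fully separate. It also took up to 6 genes called in opposite directions, up to 6 changed alike in both lines, and up to 3 called genes of each list by smallest p; other called list members are given by value. The members and gene lists were chosen with earlier results of these data known. Alternatives were other scaling factors, filters, tools (limma 3.58.1, DESeq2 1.42.0), a GC content and length offset, thinning, a replicate term and leaving out each library. The s4U conversion data were not used here. A few genes that the rule named are not reported here.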

Additional observations from a re-analysis of the deposited data

Results flagged for a closer look

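Among 272 groups of 4 libraries tested, 16 (5.88%) had 1 library set apart from the other 3, and about 1 in 20 is given by chance. In the sgIGF2BP2 DMSO group these were PDGFRL in replicate 4 (2.72 CPM against 3.75 to 3.89), CFAP69 in replicate 3 (5.01 against 3.81 to 4.01), TPM4 in replicate 2 (994 against 1011 to 1015), MCM7 in replicate 2 (741 against 682 to 688) and FOXM1 in replicate 1 (239.7 against 261 to 266). In the sgIGF2BP2 Dox group they were BTN3A3 in replicate 3 (5.42 CPM against 7.13 to 7.45) and MKI67 in replicate 2 (347 against 446 to 450).

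In the sgIGF2BP3 DMSO group they were HDAC9 (16.5 CPM against 14.7 to 14.9), H3C10 (7.08 against 6.15 to 6.30) and CELSR3 (3.45 against 3.03 to 3.06) in replicate 1, DUSP6 in replicate 2 (111 against 120 to 121) and SMURF1 in replicate 3 (67.3 against 72.5 to 72.9). In the sgIGF2BP3 Dox group they were BDH1 in replicate 1 (24.6 CPM against 26.4 to 26.7), MKI67 in replicate 1 (484 against 501 to 503), CDKN1A in replicate 2 (261 against 256 to 257) and SHMT2 in replicate 4 (451 against 422 to 423). The MKI67 value of the sgIGF2BP2 line decided its call, as given above.

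Dox changed 3 genes in opposite directions in the 2 lines, with the difference itself past the edgeR test: HDAC9 (knockout difference -0.92), ACTG1 (0.24) and WIPI2 (-0.23).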

How the results depend on the processing

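The knockout difference called 332 to 397 genes under other scaling factors, filters and tools, 255 after thinning to the smallest total, 248 with the 16 libraries alone and 262 to 372 when each library was left out. A required change of 1.2-fold left 6 genes, 2 p53 targets, 0 replication genes and 1 gene of distal 7p; it left 117 genes for Dox in the sgIGF2BP2 line, 8 in the sgIGF2BP3 line and 273 in the siRNA difference. An offset for GC content and length gave 667 genes and 15 of distal 7p. Thinning gave 3 genes of distal 7p and the 16 libraries alone gave 5. Leaving out each library in turn gave 13 to 15 p53 targets, 12 to 18 replication genes, 3 to 9 genes of distal 7p, 1857 to 2180 genes for Dox in the sgIGF2BP2 line and 108 to 285 in the sgIGF2BP3 line. The cause of these shifts was not tested.

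Same-numbered libraries did not deviate together (24 pairs, r from -0.088 to 0.089, 6 best with their own number), so the numbers do not pair them. A replicate block gave 362 genes in the knockout difference, 14 p53 targets, 17 replication genes, 9 genes of distal 7p, 2405 and 342 genes for Dox in the sgIGF2BP2 and sgIGF2BP3 lines and 2228 in the siRNA difference. The block with the GC content and length offset gave 735 genes, 533 higher and 202 lower, and 16 of distal 7p.

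Of 58 called genes named by the rule, none changed sign under any alternative, and 37 kept their call in all fits that required no 1.2-fold change. Called genes outside that rule, given by value only, were not followed singly through the alternatives. CUBN, not called, went from -0.14 to 0.06 (0.0567; edgeR adjusted p = 0.949) after thinning. Low counts limit the values of genes of few CPM.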

Other observations

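Mitochondrially encoded mRNAs had a positive knockout difference for 12 of 13 tested genes, with a median of 0.12. Of these mRNAs 0 were called by edgeR, against 2.91% over all tested genes, and 1 had an unadjusted p under 0.05, against 1708 of 11428. They made up 7.84% to 8.77% of counts in the sgIGF2BP2 DMSO libraries and 7.94% to 8.58% in all libraries of the sgIGF2BP3 line. The sgIGF2BP2 Dox replicate 2 held 5.86%, and the list was not recomputed without it.

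The effects of the 2 siRNA pools were of unequal extent, as were those of the knockouts. The IGF2BP2 siRNA changed 4202 genes and the IGF2BP3 siRNA 267 by edgeR in their own lines, each against the control siRNA. The level of the p53 list was 5.04 to 5.07 mean log2(CPM + 1) with control siRNA in the sgIGF2BP2 line and 4.999 to 5.03 with IGF2BP2 siRNA, without the rise seen with Dox.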
